A study of Homo sapiens with 5 samples.

Results

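The caveolin and cavin genes examined here were CAV1, CAV2 and CAV3, the cavins PTRF (current symbol CAVIN1), SDPR (CAVIN2) and PRKCDBP (CAVIN3), and EHD2. They were chosen by name as the core genes of caveolae, with earlier results of these data known. CAV2 was read by transcript because its change with HuR siRNA was already known to depend on transcript length. All 7 were found among the 39339 genes with an annotated transcript. All 7 also averaged 1 FPKM or more with no failed estimate, as did 12570 genes in all. The study sequenced total RNA of WI-38 cells, a diploid fibroblast strain from human lung, in 5 libraries: untreated cells at population doubling level (PDL) 15, untreated cells at PDL 55, and PDL 15 cells that received a control siRNA, an siRNA against AUF1 or an siRNA against HuR. AUF1 and HuR are RNA-binding proteins that recognise AU-rich sequences in mRNA. Each group had 1 library, all from the same strain, so none of the differences could be checked against replicates, no test was possible, and every ratio compares a pair of libraries rather than conditions.

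Caveolae are small flask-shaped pits of the plasma membrane that are abundant in fibroblasts, endothelial cells, adipocytes and muscle. Caveolin 1, with caveolin 2 as its partner, forms their membrane coat outside striated muscle, while caveolin 3 is the muscle form. The cavins assemble on the cytoplasmic face of the coat, with cavin 1 required for the pit to form, and EHD2 is an ATPase that sits at the neck and holds the pit at the surface.

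FPKM counts sequenced fragments relative to transcript length and to the size of the library. The authors' tables list it for annotated Ensembl transcripts and for transcripts that Cufflinks assembled from the reads of each library. 3 quantities (a summed FPKM over annotated transcripts, a summed FPKM over annotated plus assembled transcripts of the same gene identifier, and a fragment total, which is FPKM times length in kb summed over both) are given below, because the first 2 count 1 fragment on a short transcript more than 1 on a long transcript. PTRF at PDL 15, and CAV2 at PDL 15 and with control siRNA, were listed at 0 on annotated transcripts while an assembled transcript of the gene held all of its FPKM, so those entries are not read as absence.

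AU-rich pentamers in the members' transcripts are shown because AUF1 and HuR bind such sequences and because the forms of CAV1 and CAV2 in GENCODE 29 differ in how many they hold. Assembled transcripts and ENST00000476156, which held all CAV2 FPKM in 3 of 5 libraries, could not be searched. The pentamer ATTTA (sense strand only) was counted in GENCODE 29 transcripts. The coding CAV2 transcript ENST00000222693 has 7, all after the stop codon, and the 2 short CAV2 transcripts that could be searched, ENST00000484871 and ENST00000485561, have 0. The 2443 nt CAV1 transcript ENST00000405348 has 4, of which 3 lie after the stop codon, and the 557 nt CAV1 transcript ENST00000456473 has 1, which ENST00000405348 also holds before its stop codon, so that both have a like density, 1.64 and 1.80 per kb. EHD2 ENST00000263277 has 4, SDPR ENST00000304141 has 2, and the longest coding transcripts of PTRF, PRKCDBP and CAV3 have 0. None of them holds the nonamer TTATTTATT, which 8.74% of 19644 coding genes have in their longest coding transcript. At least 1 ATTTA was present in 76.8% of these genes, with a median of 3 per transcript, and 26.7% had 7 or more, so the CAV2 number is not rare. The first 3 sites after the stop codon of CAV2, the 3 of CAV1 and the CAV1 pentamer before it are printed with the pentamer in capitals and its first base counted from the 5′ end of the transcript.
CAV2 ENST00000222693 at 1010: atgagcaaccacATTTAgaaatgtttatt
CAV2 ENST00000222693 at 1123: gacaccacttagATTTAaaggcagacagt
CAV2 ENST00000222693 at 1473: tcctacaggcctATTTAacaagatgtttc
CAV1 ENST00000405348 at 644: aatacagcaacaATTTAtgaattgaatta
CAV1 ENST00000405348 at 762: tttttaaaacccATTTAaatttttttcct
CAV1 ENST00000405348 at 2113: ttgactttttgcATTTAaaacagacactg
CAV1 ENST00000405348 at 363 and ENST00000456473 at 399: ctcatctggggcATTTActtcgccattct
A match is a description of the letters and not a measured binding site.

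Read depth is not given in the sources used here. The coverage that 1 FPKM stands for, a proxy for depth, was 0.300 in the control siRNA library and between 1.14 and 1.29 in the other 4, and 73.9% of FPKM times length in the control library lay in assembled transcripts under 100 nt, against 4.09 to 8.18% elsewhere. The control library therefore stands apart, and the comparisons of each knockdown with control below are followed by the members' values against PDL 15. HNRNPD, the gene of AUF1, was at 20.3 FPKM in the AUF1 siRNA library against 61.2 in the control, and it was between 42.3 and 120.3 in the other 3 libraries. ELAVL1, the gene of HuR, was at 9.72 in the HuR siRNA library against 11.8 in the control, with overlapping bounds, and at 12.2 to 17.7 elsewhere. Of 11 fibroblast markers, 9 to 11 were at 1 FPKM or more in each library, with a summed level of 2333 to 12317. However, COL1A1 with HuR siRNA, VIM with control siRNA, and PDGFRA at PDL 15 and with control siRNA were at 0 or had no row. Such entries are not read as absence. Among markers of other cells with many caveolae, those of endothelium, adipocytes and skeletal muscle were low and those of smooth muscle were not. The 9 endothelial markers summed to 9.94 to 24.1 FPKM, led by TEK, with PECAM1 at 0 or without a row in all 5 libraries. The 6 adipocyte markers summed to 0.363 to 1.98. The 8 skeletal muscle markers summed to 3.05 to 5.62, led by ACTA1 at 2.49 to 3.76, with MYOG and MYF5 at 0 or without a row throughout. Smooth muscle markers summed to 109 to 354 FPKM, led by ACTA2 at 89.6 to 260, epithelial markers to 2.16 to 13.5 and blood markers to 0.519 to 5.37. In such bulk samples fewer cells of a type and less RNA per cell cannot be told apart.

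**Figure D1:**
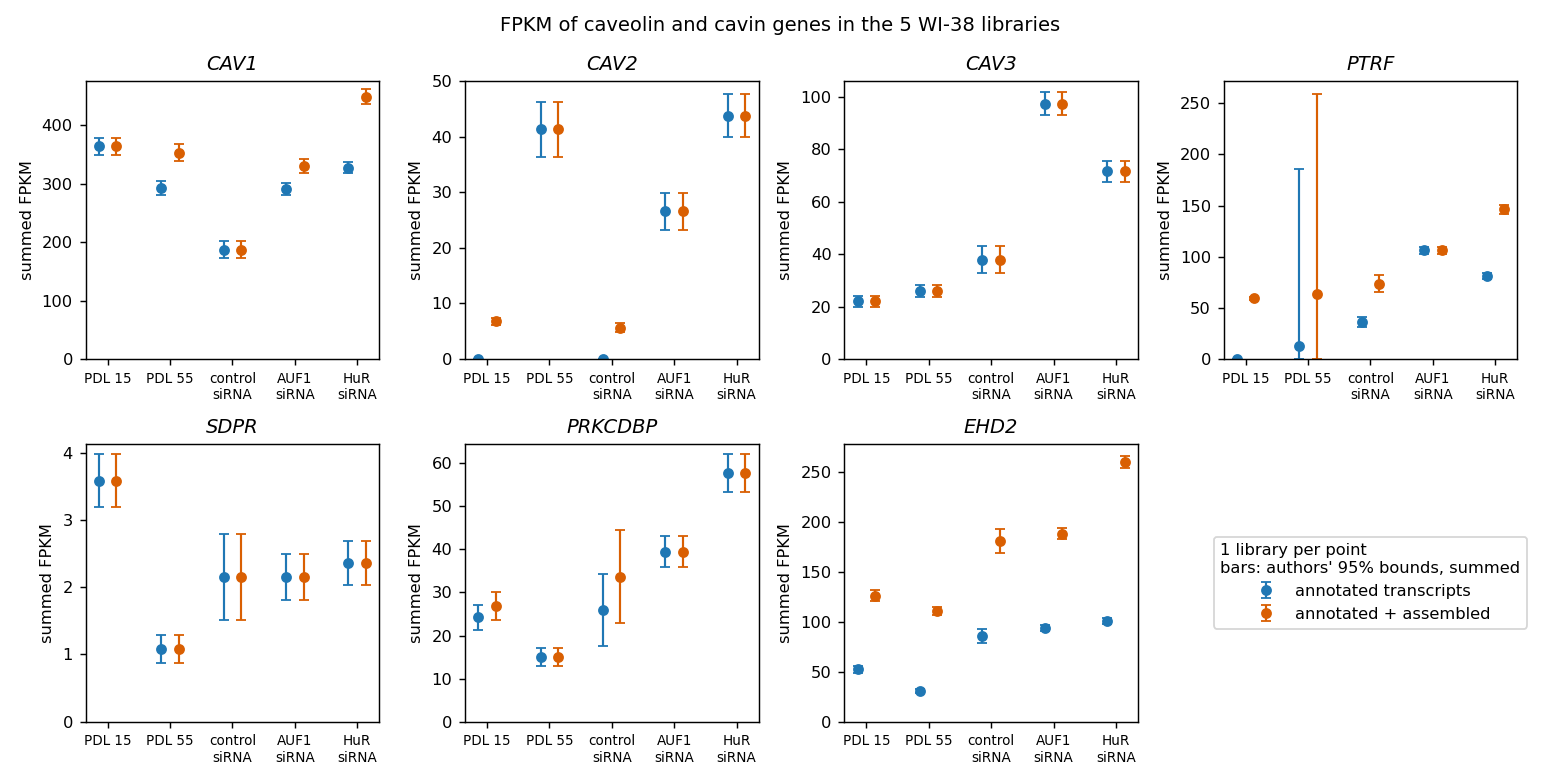
Summed FPKM (vertical axis, from 0) of each gene in the 5 libraries, 1 point per library, for annotated transcripts (blue) and for annotated plus assembled transcripts (orange), with the authors' 95% bounds summed over transcripts. CAV1, PTRF, PRKCDBP and EHD2 had their highest annotated plus assembled level with HuR siRNA, at 449, 146, 57.7 and 261, and SDPR had its lowest, 1.07, at PDL 55.

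CAV1 (ENSG00000105974, hg19 chromosome 7, 116164839 to 116201233) encodes the main structural protein of the coat and was the most abundant member in every library by annotated plus assembled FPKM. Its annotated FPKM was 364 at PDL 15, 292 at PDL 55, 187 with control siRNA, 291 with AUF1 siRNA and 327 with HuR siRNA. With assembled transcripts these became 364, 353, 187, 330 and 449. The control library was the lowest on both sums, and its bounds, 172 to 202, did not reach those of any other library. The HuR siRNA library was the highest on the second sum, while PDL 15 and PDL 55 overlapped within their bounds, as did PDL 55 and AUF1 siRNA. With control siRNA, EHD2 was at 182 FPKM (170 to 194) on the second sum, which overlapped with CAV1. By fragment total EHD2 and PTRF were above CAV1 in that library, at 305 and 240 against 210 FPKM times kb.

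The CAV1 signal was assigned to a short and a long form. Most bases of the short model are shared with the long transcript and none lie after a stop codon. Whether they are separate mRNAs was not tested. ENST00000456473, the 557 nt coding model that shares 477 nt with the 2443 nt transcript, was at 216, 218, 131, 240 and 327 FPKM in the order PDL 15, PDL 55, control, AUF1 and HuR siRNA. Models of at least 2000 nt, which reach past the stop codon, were at 71.5, 60.9, 55.9, 89.5 and 121 in the same order. Both forms were thus lowest with control siRNA and highest with HuR siRNA. The long form was ENST00000405348 at PDL 15 and with control siRNA, an assembled 2458 nt transcript at PDL 55 and with HuR siRNA, and both with AUF1 siRNA, which is why the annotated sum alone leaves out the long form in some libraries. The long form held 51.3% of CAV1 fragments at PDL 15, 47.4% at PDL 55, 65.1% with control, 62.1% with AUF1 and 62.1% with HuR siRNA, so this share was higher in the 3 transfected libraries. Another model, ENST00000393470 (598 nt), was above 0 only at PDL 15 (76.6 FPKM) and PDL 55 (74.1).

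Against control siRNA, CAV1 was 1.76-fold higher with AUF1 siRNA and 2.40-fold higher with HuR siRNA by annotated plus assembled FPKM. Relative to the median gene of each comparison these are log2 ratios of 0.63 and 0.95. Against PDL 15 the same libraries gave 0.08 and 0.39, and control siRNA against PDL 15 gave -0.55. By fragment total the 2 knockdown libraries were at 0.56 and 0.88 against control and at 0.30 and 0.61 against PDL 15, with control against PDL 15 at -0.26. AC006159.1, an antisense gene that overlaps CAV1 and shares 0 nt of exon with either main form, was at 23.3 FPKM at PDL 15, 12.7 at PDL 55, 12.3 with control, 28.2 with AUF1 and 27.6 with HuR siRNA. Like CAV1, it was lowest with control siRNA and higher with AUF1 and HuR siRNA. Unlike CAV1, it was about as low at PDL 55 as with control siRNA. Strand was not stated, and its part in the CAV1 values was not tested.

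CAV2 (ENSG00000105971, hg19 chromosome 7, 115927434 to 116148595), the partner of caveolin 1 in the coat, was read very differently by FPKM and by fragments. Its annotated FPKM was 0 at PDL 15, 41.4 at PDL 55, 0 with control siRNA, 26.6 with AUF1 siRNA and 43.8 with HuR siRNA. Adding assembled transcripts put PDL 15 at 6.79 and control siRNA at 5.62 and left the other 3 as they were. On that sum HuR siRNA and PDL 55 were the highest and overlapped within their bounds, AUF1 siRNA was in between, and PDL 15 and control siRNA were the lowest and overlapped.

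Each library placed the CAV2 fragments on different transcripts. At PDL 15 a single assembled transcript of 3215 nt held them all, at 6.79 FPKM (authors' bounds 6.14 to 7.43). With control siRNA it was a single assembled transcript of 4940 nt, at 5.62 (4.82 to 6.43). With HuR siRNA it was the 533 nt annotated ENST00000476156 alone, at 43.8 (39.9 to 47.7).

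At PDL 55 the fragments were split over the 3301 nt coding transcript ENST00000222693 at 6.72 FPKM, the 971 nt ENST00000484871 at 10.2 and ENST00000476156 at 24.4. With AUF1 siRNA they were split over ENST00000222693 at 5.32 and the 577 nt ENST00000485561 at 21.3. ENST00000222693 was thus above 0 in 2 of 5 libraries, and where it was, its FPKM was close to that of the long assembled transcripts at PDL 15 and with control siRNA. The short transcripts start over a long distance upstream of it, at hg19 position 115928127 or 115929932 against 116139444. The 2 that are in GENCODE 29 are noncoding there: ENST00000484871 shares 417 of its 971 nt and ENST00000485561 138 of its 577 nt with the coding transcript. ENST00000476156 is not in GENCODE 29 and was placed in CAV2 by the authors' gene identifier.

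By fragment total, CAV2 was at 21.8 FPKM times kb at PDL 15, 45.1 at PDL 55, 27.8 with control, 29.8 with AUF1 and 23.3 with HuR siRNA. PDL 55 was then the highest and did not overlap with the next library, and the other 4 lay close together, each overlapping with its neighbour in the order. The log2 ratio of HuR siRNA to control siRNA was 2.76 by annotated plus assembled FPKM and -0.24 by fragment total, or 2.45 and -0.55 relative to the median gene. For AUF1 siRNA against control it was 2.06 and 0.10. The high FPKM of CAV2 with HuR siRNA thus goes with a model of 533 nt in place of one of 4940 nt. The fragment total was no higher. That total is relative to library size and is not a count of reads. For PDL 55 against PDL 15 the sign was the same on both, at 2.44 and 1.02. AC002066.1, which overlaps CAV2 on the opposite strand and shares 76 nt with ENST00000222693, was at 39.3 FPKM at PDL 15, 39.0 at PDL 55, 51.0 with control, 60.7 with AUF1 and 67.4 with HuR siRNA, and its part in these values was not tested.

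**Figure D2:**
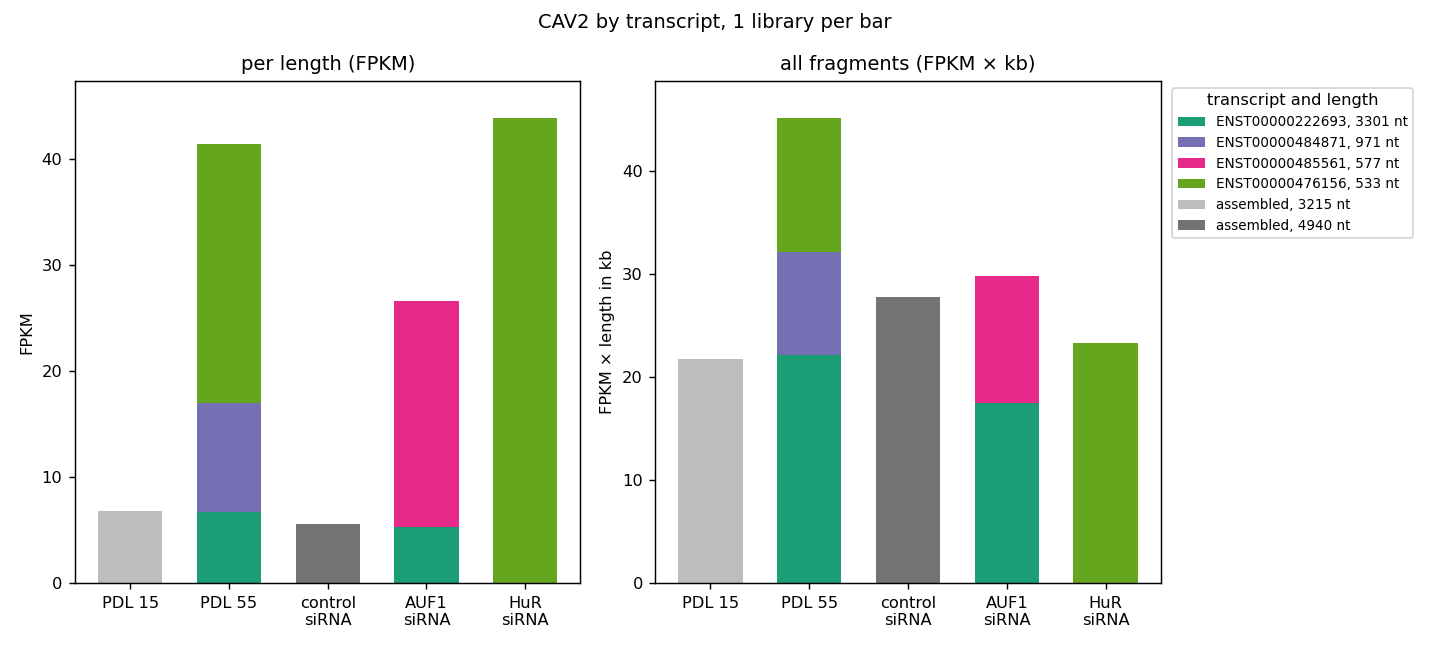
CAV2 in the 5 libraries (1 bar each) as stacked transcripts, by FPKM (left) and by FPKM times length in kb (right). HuR siRNA is the tallest bar at 43.8 FPKM and among the shortest at 23.3 FPKM times kb, where PDL 55 is tallest at 45.1.

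CAV3 (ENSG00000182533, hg19 chromosome 3, 8775486 to 8883492 over its annotated transcripts), the muscle caveolin, was listed at 0 on both of its coding transcripts in all 5 libraries. All of its FPKM lay on ENST00000472766, a noncoding transcript of 680 nt that shares 155 nt with the coding transcript and runs far beyond it. That transcript was at 22.0 FPKM at PDL 15, 26.0 at PDL 55, 37.9 with control siRNA, 97.5 with AUF1 siRNA and 71.7 with HuR siRNA. AUF1 siRNA was the highest and HuR siRNA next, with bounds apart from each other and from control, while PDL 55 and PDL 15 overlapped. The values are therefore those of a noncoding model of the CAV3 locus and are not read as the mRNA of caveolin 3. Of 8 skeletal muscle markers, 1 or 2 reached 1 FPKM in each library, ACTA1 in all 5.

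ENST00000472766 was 2.57-fold higher with AUF1 siRNA and 1.89-fold higher with HuR siRNA than with control, and 4.44-fold and 3.26-fold higher than at PDL 15. This order was the same on the 3 measures, since there is 1 transcript and no assembled transcript. RAD18 and OXTR overlap its span on the opposite strand and share 0 nt of exon with it. RAD18, a ubiquitin ligase gene of DNA repair, was at 30.8, 19.1, 34.0, 59.6 and 39.6 FPKM in the order PDL 15, PDL 55, control, AUF1 and HuR siRNA, also highest with AUF1 siRNA. OXTR, the oxytocin receptor gene, was at 4.47, 4.80, 13.3, 19.0 and 14.4 with assembled transcripts, which ranks the libraries as ENST00000472766 does. Strand was not stated. Their part in the values of ENST00000472766 was not tested.

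PTRF (ENSG00000177469, hg19 chromosome 17, 40554468 to 40575338), the cavin that the pit requires, was at 0, 13.2, 36.1, 106 and 81.1 annotated FPKM in the order PDL 15, PDL 55, control, AUF1 and HuR siRNA. With assembled transcripts it was at 59.5, 63.3, 73.6, 106 and 146. The entry of 0 at PDL 15 is therefore a gene whose FPKM all sat on an assembled transcript of 3339 nt. HuR siRNA was the highest on the second sum and AUF1 siRNA next, with bounds apart, while control siRNA, PDL 55 and PDL 15 overlapped in turn. The bounds at PDL 55 were 0 to 259, so that library carries little information on PTRF.

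The long PTRF models, annotated or assembled, were close together, at 59.5, 50.1, 60.3, 54.8 and 65.2 FPKM in the same library order. The 1927 nt ENST00000357684 was at 0, 13.2, 13.3, 51.5 and 81.1. By annotated plus assembled FPKM the gene was thus higher in the AUF1 and HuR siRNA libraries through its shorter model. By fragment total PTRF was at 199, 193, 240, 299 and 374 FPKM times kb. Against control siRNA the log2 ratio relative to the median gene was 0.34 with AUF1 siRNA and 0.67 with HuR siRNA by annotated plus assembled FPKM, and 0.12 and 0.32 by fragment total. Each was under 2-fold. ENST00000357684 had the status LOWDATA in every library where it was above 0.

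SDPR (ENSG00000168497, hg19 chromosome 2, 192699028 to 192711981), a cavin that shapes the membrane around the pit, was the least abundant member in all 5 libraries by annotated plus assembled FPKM. Its only transcript, the 3229 nt coding ENST00000304141, was at 3.58 FPKM at PDL 15, 1.07 at PDL 55, 2.15 with control, 2.15 with AUF1 and 2.36 with HuR siRNA. PDL 15 was the highest and PDL 55 the lowest, each apart from its neighbour by the authors' bounds (3.19 to 3.98 and 0.867 to 1.28), and the 3 transfected libraries overlapped. SDPR was 3.33-fold lower at PDL 55 than at PDL 15, a log2 ratio of -1.14 on the log2(FPKM + 1) scale, which understates the difference at this level, and -0.83 relative to the median gene with assembled transcripts included. Against control siRNA, PDL 55 was 2.00-fold lower. With a single model and no assembled transcript, SDPR gave the same value by annotated and by annotated plus assembled FPKM. AC098617.1, an antisense gene that shares 233 nt with the SDPR transcript, was at 23.5, 13.7, 9.78, 24.2 and 19.3 FPKM in the order PDL 15, PDL 55, control, AUF1 and HuR siRNA, well above SDPR, and its part in the SDPR values was not tested.

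PRKCDBP (ENSG00000170955, hg19 chromosome 11, 6340176 to 6341877), the cavin that binds protein kinase C delta, was at 24.2, 15.0, 25.9, 39.5 and 57.7 annotated FPKM in the same order. With assembled transcripts PDL 15 was at 26.8 and control siRNA at 33.6. HuR siRNA was the highest and PDL 55 the lowest on each measure, both apart from their neighbours, while by annotated plus assembled FPKM AUF1 siRNA and control siRNA overlapped, as did control siRNA and PDL 15. The coding ENST00000303927 showed the same extremes by itself, at 11.6, 7.60, 12.7, 16.2 and 28.7 FPKM. The 605 nt ENST00000524852, a retained-intron model at 12.6, 7.40, 5.97, 23.3 and 28.95, was also highest with HuR siRNA but lowest with control siRNA. By annotated plus assembled FPKM PRKCDBP was 1.71-fold higher with HuR siRNA than with control and 2.15-fold higher than at PDL 15. At PDL 55 it was 1.79-fold lower than at PDL 15 and 2.24-fold lower than with control siRNA.

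EHD2 (ENSG00000024422, hg19 chromosome 19, 48216601 to 48246390), the ATPase of the neck, was at 52.4, 30.9, 85.7, 93.9 and 101 annotated FPKM, and at 126, 111, 182, 189 and 261 with assembled transcripts. In all 5 libraries an assembled transcript that spans the gene, 2091 to 2118 nt long, held 63.8 to 81.7% of its fragments, while the full-length coding ENST00000263277 was listed at 0. The annotated sum thus left out most EHD2 fragments. HuR siRNA was the highest library and PDL 55 the lowest on each measure. AUF1 and control siRNA overlapped, and PDL 15 and PDL 55 were apart by their bounds.

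The annotated EHD2 signal was on ENST00000540884, a 1215 nt noncoding model that shares 1150 nt with the coding transcript, and at PDL 15 also on the 1639 nt ENST00000454483, at 15.6 FPKM. ENST00000540884 was at 36.8, 30.9, 85.7, 93.9 and 101 FPKM, so all 3 transfected libraries were above both untreated ones. The long assembled form was at 74.1, 80.2, 95.9, 94.8 and 160, with HuR siRNA alone standing well above the rest. Against control siRNA, EHD2 was 1.43-fold higher with HuR siRNA and 1.04-fold higher with AUF1 siRNA by annotated plus assembled FPKM. Against PDL 15 the HuR siRNA library was 2.06-fold higher.

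**Figure D3:**
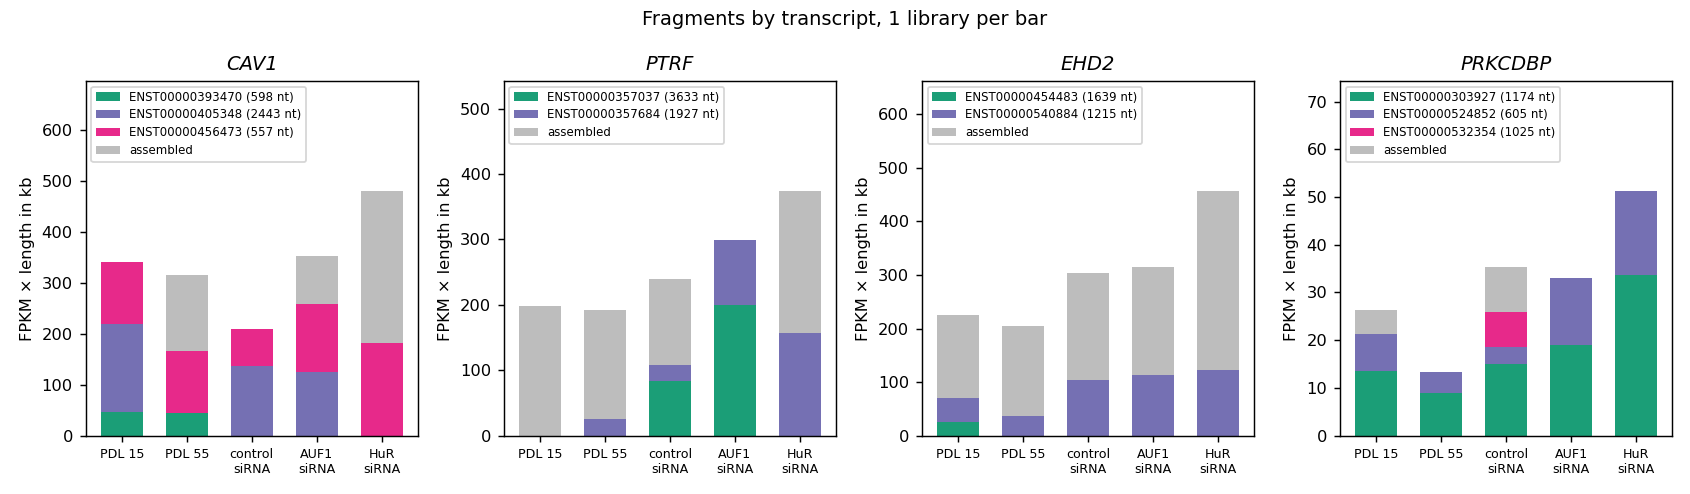
Fragments of CAV1, PTRF, EHD2 and PRKCDBP (FPKM times length in kb) in each library (1 bar each), stacked by annotated transcript (colours) and assembled transcripts (grey). PTRF at PDL 15 is wholly grey, and the grey part of EHD2 is 63.8 to 81.7% of each bar.

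The comparison of PDL 55 with PDL 15 asks how early and late passage cells differ. By annotated FPKM, 3 of 7 members were at least 2-fold apart on the log2(FPKM + 1) scale, CAV2 and PTRF higher and SDPR lower, against 23.4% of all genes, but CAV2 and PTRF were listed at 0 at PDL 15. By annotated plus assembled FPKM, 2 of 7 were apart, CAV2 higher and SDPR lower, against 20.5% of all genes. The same 2 were apart by fragment total, against 18.8%. CAV1, PTRF and EHD2 were within 1.14-fold of their PDL 15 level by annotated plus assembled FPKM. For PTRF the bounds at PDL 55 were 0 to 259, so its level there is poorly known. The members' median log2 ratio was -0.04 on that sum and that of all genes -0.31. PRKCDBP and SDPR were the members below the median gene, at -0.48 and -0.83 relative to it, so SDPR was under 2-fold lower on that scale and CAV2, at 2.76, was the 1 member past it.

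The comparison of AUF1 siRNA with control siRNA asks what differs when AUF1 is reduced. CAV2, CAV3 and PTRF were at least 2-fold higher by annotated FPKM, 3 of 7 members against 22.6% of all genes. By annotated plus assembled FPKM CAV2 and CAV3 were, 2 of 7 against 18.1%, and by fragment total CAV3 alone, 1 of 7 against 13.8%. No member was 2-fold lower on any of the 3. SDPR, PRKCDBP and EHD2 differed from control by at most 1.17-fold on the second sum. The members' median was 0.53 on that sum and that of all genes 0.19, while by fragment total it was 0.10 against 0.19. With PDL 15 as the reference and annotated plus assembled FPKM, CAV3 and CAV2 were 4.44-fold and 3.92-fold higher, 2 of 7 past 2-fold against 17.2% of all genes. PTRF, EHD2 and PRKCDBP were 1.79-fold, 1.49-fold and 1.47-fold higher, CAV1 1.10-fold lower and SDPR 1.66-fold lower. By fragment total CAV3 alone was past 2-fold, against 16.2%, and CAV2 was 1.37-fold higher.

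The comparison of HuR siRNA with control siRNA was meant to ask the same of HuR, and it shares the control library with the comparison before it. ELAVL1 was at 9.72 FPKM with HuR siRNA against 11.8 with control, with overlapping bounds, so the target RNA was not clearly lower. CAV2, PTRF and PRKCDBP were at least 2-fold higher by annotated FPKM, 3 of 7 against 25.7% of all genes. By annotated plus assembled FPKM CAV1 and CAV2 were, 2 of 7 against 20.9%, and by fragment total CAV1 alone, 1 of 7 against 16.8%. All members but SDPR were above the median gene by annotated plus assembled FPKM, with a members' median of 0.90 against 0.31 for all genes. Relative to the median gene CAV1, at 0.95, was just under 2-fold higher and CAV2 alone was past it. CAV2 was the 1 other member below the median gene by fragment total. With PDL 15 as the reference and annotated plus assembled FPKM, CAV2, CAV3, PTRF, PRKCDBP and EHD2 were 6.45-fold, 3.26-fold, 2.46-fold, 2.15-fold and 2.06-fold higher, 5 of 7 past 2-fold against 13.9% of all genes, and CAV1 was 1.23-fold higher and SDPR 1.52-fold lower. By fragment total CAV3 and EHD2 alone were past 2-fold, 2 of 7 against 12.6%, with PRKCDBP 1.94-fold, PTRF 1.88-fold, CAV1 1.41-fold and CAV2 1.07-fold higher.

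Between AUF1 siRNA and HuR siRNA, 0 of 7 members were at least 2-fold apart on any of the 3 measures, against 13.1% of all genes by annotated FPKM, 9.66% by annotated plus assembled FPKM and 8.12% by fragment total. CAV1, PTRF, PRKCDBP and EHD2 were 1.36-fold to 1.46-fold lower with AUF1 siRNA by annotated plus assembled FPKM, and CAV3 was 1.36-fold higher. CAV2 was 1.65-fold lower on that sum and 1.28-fold higher by fragment total. Between control siRNA and PDL 15, neither of which had a named knockdown, 1 of 7 was apart by annotated FPKM (PTRF, listed at 0 at PDL 15) against 30.7% of all genes. By annotated plus assembled FPKM it was 0 of 7 against 26.5%, and by fragment total 0 of 7 against 23.6%. CAV1 came closest by annotated plus assembled FPKM, 1.94-fold lower with control siRNA, and by fragment total CAV3, 1.72-fold higher. Relative to the median gene, which was lower by 0.41 on the log2 scale, CAV3 was past 2-fold higher at 1.17 and EHD2 close to it at 0.93, and 11.6% of all genes were that much higher and 8.82% that much lower. These shares are the background that the members' differences between single libraries have to be read against.

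**Figure D4:**
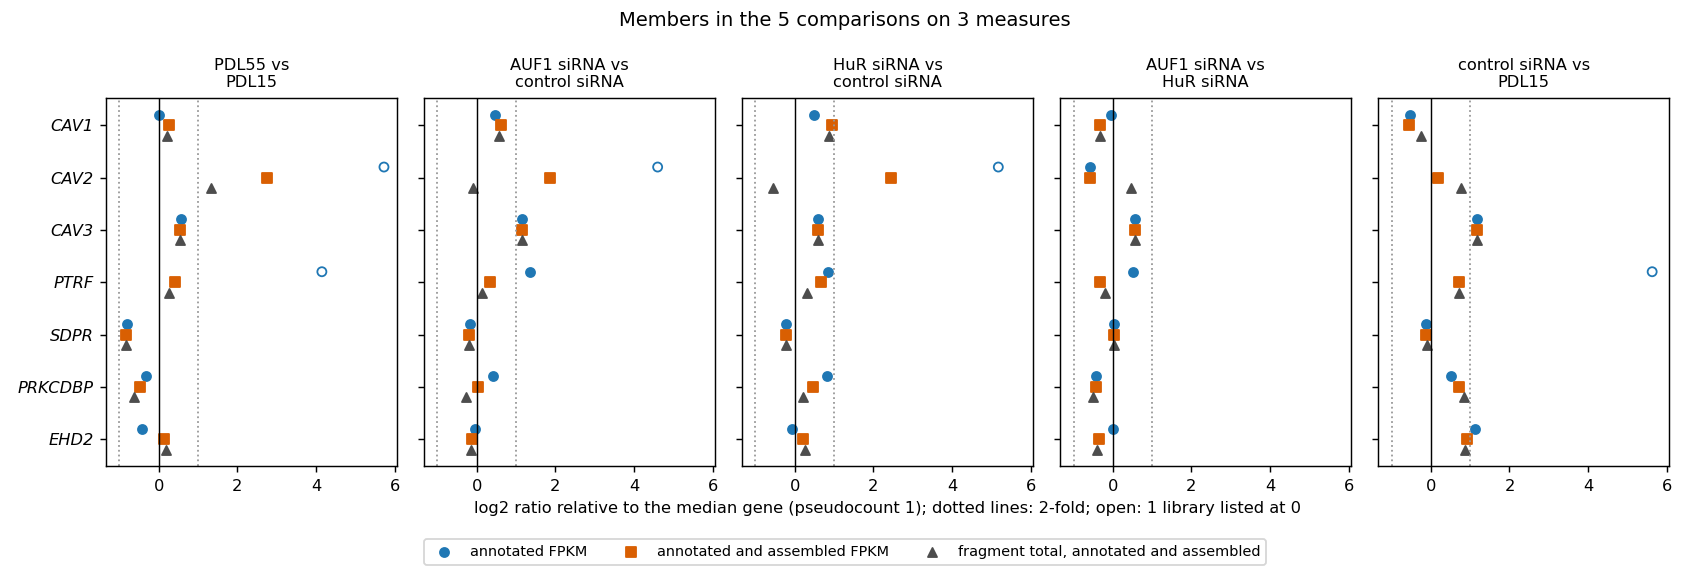
log2 ratios relative to the median gene (horizontal axis) of the 7 members in the 5 comparisons, by annotated FPKM (circles), annotated plus assembled FPKM (squares) and fragment total (triangles). Open circles have 1 library listed at 0, and CAV2 has no circle between control siRNA and PDL 15, where both are. CAV2 moves most between measures, from 2.45 by annotated plus assembled FPKM to -0.55 by fragment total for HuR siRNA against control, while SDPR gives nearly the same value on all 3.

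Other caveola genes were read by annotated plus assembled FPKM relative to the median gene. Of 16 partners of the pit, such as EHD family ATPases, pacsins and filamin, 13 were measured. At PDL 55, 1 was at least 2-fold higher and 2 lower, against 8.37 and 8.72% of all genes. They were STOM, a membrane scaffold gene, at 35.3 against 21.5 FPKM, EHD3 at 8.81 against 24.8 and EHD1, listed at 0 against 3.42. With AUF1 siRNA 3 were higher and 0 lower, against 7.27 and 9.37%: FLNA, which links caveolae to actin, was at 422 against 116, ABL1, a stress fibre kinase gene, at 48.1 against 15.8, and EHD1 at 27.3 against 4.60. With HuR siRNA 2 were higher and 2 lower, against 7.83 and 9.64%: FLNA was at 369 and EHD1 at 25.4, while PACSIN3 was at 9.63 against 18.9 and the kinase gene SRC at 4.86 against 9.81. By annotated FPKM the list had 0 higher and 2 lower at PDL 55, against 9.58 and 10.3% of all genes, 4 and 0 with AUF1 siRNA, against 10.2 and 11.2%, and 5 and 1 with HuR siRNA, against 10.7 and 11.7%. Its median with HuR siRNA was then 0.45 in place of -0.05, and PACSIN3, listed at 0 in the control library, was among the higher. At PDL 15 FLNA was at 587, ABL1 at 48.8 and EHD1 at 3.42 by annotated plus assembled FPKM, so EHD1 was above PDL 15 in both knockdown libraries and FLNA and ABL1 were not. By annotated FPKM FLNA and ABL1 were above PDL 15 with AUF1 siRNA, at 346 against 291 and 45.8 against 30.9.

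Of 25 receptors and enzymes that are placed in caveolae, 21 were measured. At PDL 55, 2 were at least 2-fold higher and 5 lower, against the 8.37 and 8.72% of all genes given for the partners. TGFBR2 was at 131 FPKM against 50.7, while TGFBR1, the other chain of the TGF-beta receptor, was at 5.10 against 19.8. BDKRB2, the bradykinin receptor gene, was at 2.51 against 38.3 and SLC7A1, an arginine transporter gene, at 3.10 against 16.0. BDKRB2 was the 1 gene of the list that was higher with AUF1 siRNA, at 27.1 against 9.93, and the 1 that was higher with HuR siRNA, at 61.9, but by annotated FPKM it was lower in both, at 2.49 and 2.00. With AUF1 siRNA 1 was thus higher and 0 lower, against 7.27 and 9.37% of all genes. With HuR siRNA 1 was higher and 2 lower, ITPR1 (0.937 against 2.21) and INSR (0.952 against 2.18), against 7.83 and 9.64%. By annotated FPKM, which left 20 measured, 2 were higher and 6 lower at PDL 55, 1 and 1 with AUF1 siRNA, and 2 and 3 with HuR siRNA. The shares of all genes on that sum were 9.58 and 10.3%, 10.2 and 11.2%, and 10.7 and 11.7%.

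Of 17 flotillin and clathrin coat genes, which serve other rafts and endocytic routes, 14 were measured. At PDL 55, 1 was 2-fold higher, the clathrin light chain gene CLTB at 36.5 against 18.1 FPKM, and 1 lower, the dynamin gene DNM1 at 1.65 against 14.4. With AUF1 siRNA 2 were higher and 1 lower: the clathrin heavy chain gene CLTC was at 148 against 32.4, the adaptor gene AP2M1 at 143 against 61.3 and AP2S1 at 7.69 against 19.4. With HuR siRNA 2 were higher and 1 lower: CLTC at 184, AP2M1 at 294 and SH3GL2 at 0.606 against 2.52. In each of the 3 comparisons that is 1 or 2 of 14 in a direction, beside shares of all genes of 8.37 and 8.72%, 7.27 and 9.37%, and 7.83 and 9.64%. By annotated FPKM it was 1 higher and 1 lower at PDL 55, 4 and 1 with AUF1 siRNA, and 5 and 1 with HuR siRNA. The shares of all genes were then 9.58 and 10.3%, 10.2 and 11.2%, and 10.7 and 11.7%. CLTC was at 201 and AP2M1 at 212 at PDL 15, so both were lower with control siRNA than at PDL 15. The 3 lists had median ratios by annotated plus assembled FPKM between -0.40 and 0.32 relative to the median gene over these 3 comparisons.

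The members' own patterns over the 5 libraries were compared by the root mean square difference in log2(FPKM + 1), after removing each library's median and each gene's mean, on annotated plus assembled FPKM. PTRF, PRKCDBP and EHD2 were the most alike, with differences of 0.19 between PTRF and EHD2, 0.24 between PRKCDBP and EHD2 and 0.33 between PTRF and PRKCDBP. CAV1 was 0.50 from PTRF, its nearest member, and CAV2 was at least 0.96 from every other member. By annotated FPKM, where PTRF was listed at 0 at PDL 15, PTRF was 2.11 from EHD2 and 2.14 from PRKCDBP. PRKCDBP was 0.30 from EHD2 on that sum, and the member nearest to CAV1 was SDPR, at 0.41. Among the 6968 genes that averaged 5 FPKM or more, those nearest to CAV1 were TXNL4A, P3H4 and STN1 (0.04 to 0.06). Those nearest to PTRF were LYPLA2, FAM3A and CCNK (0.07 to 0.10), and those nearest to EHD2 were KDELR1, STRN4 and NECTIN1 (0.06 to 0.07). PRKCDBP was nearest to MXRA8, RGS7 and AHDC1 (0.06 to 0.14), and SDPR to TASP1, CASP8AP2 and AADAT (0.03 to 0.05). The SDPR match is partly set by the scale, since the added 1 shrinks differences at its level. From PDL 15 to PDL 55 SDPR went from 3.58 to 1.07 FPKM and TASP1 from 14.5 to 5.85. CAV3 was nearest to STARD3, THADA and LARP1 (0.15 to 0.20), and CAV2 to PCYOX1, RBM27 and HIST1H2BK, at 0.34 to 0.42, so it had no close match. With 5 points, all sharing the same libraries, such likeness is a description.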

How the data were processed

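Total RNA of 5 WI-38 libraries was amplified with a NuGEN kit for RNA with and without polyA and sequenced on a Genome Analyzer, per the labels' protocols. TopHat2 2.0.6, Cufflinks 2.0.2, Cuffdiff and hg19 are named in the submitters' processing notes; the sources used here do not give the annotation release, read depth or strand. The authors deposited 1 table per library with FPKM, 95% bounds, a coverage signal and a status per transcript, per the file headers. The members and gene lists were chosen with earlier results of these data known.

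From the deposited FPKM values, sums over annotated transcripts were taken per gene (151810 of 160485 transcripts, 94.6%, received a gene through GENCODE 29 or a shared gene identifier), and ratios were log2((FPKM + 1)/(FPKM + 1)). Small RNAs were left out. Genes with a FAIL transcript or a mean FPKM under 1 were also left out, but not from the marker sums. Summed bounds describe the estimate within 1 library and tend to be wider than an interval of the sum. Fragment totals were divided by the gene's mean annotated transcript length before ratios were taken. The median log2 ratio of all genes by annotated FPKM was -0.32 for PDL 55 against PDL 15, 0.18 for AUF1 and 0.31 for HuR siRNA against control, -0.12 for AUF1 against HuR siRNA and -0.42 for control siRNA against PDL 15. With 1 library per group no test was run. Genes named were the 7 members, the siRNA targets, up to 3 genes per list and direction past 2-fold relative to the median gene, and the 3 genes of most similar pattern per member; overlapping neighbours were added after their values were seen. Alternatives were other pseudocounts, transcript sets, scalings and reference libraries. Python 3.11.15 with pandas 2.3.3 was used, and the ratio code was tested on simulated data. GRCh38 entered only through GENCODE 29 names, lengths and transcript sequences.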

Additional observations from a re-analysis of the deposited data

How the results depend on the processing

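No paired analysis was possible because each group has 1 library. The number of members at least 2-fold apart stayed within 1.5 times of the annotated count in 46 alternatives, but in 20 of these with other members or directions. With control siRNA as reference, for example, PDL 55 still had 3, of which 1 was higher and 2 were lower (PTRF and EHD2), and control siRNA against PDL 15 still had 1 with status OK only, but EHD2 in place of PTRF. By annotated FPKM, 16.7% of all genes were at least 2-fold higher at PDL 55 than with control siRNA and 15.4% lower. All counts outside the range of 1.5 times follow. For PDL 55 against PDL 15 it went from 3 to 1 with assembled transcripts relative to the median gene. For AUF1 siRNA against control it went from 3 to 1 by fragment total with assembled transcripts. For HuR siRNA against control it went from 3 to 1 by fragment total with or without assembled transcripts, relative to the median gene with or without them, and with equal annotated totals, and to 5 with assembled transcripts and PDL 15 as reference. For AUF1 against HuR siRNA it went from 0 to 1 with transcripts of status OK only (PTRF) and with the single most abundant transcript (CAV2). For control siRNA against PDL 15 it went from 1 to 0 with assembled transcripts by FPKM or fragments, to 2 with the single transcript, and to 3 relative to the median gene or with equal totals. Relative to the median gene by annotated FPKM, 13.7% of all genes were at least 2-fold higher in that comparison and 11.6% lower. The share of all genes was not taken for status OK only, the single transcript, equal totals or fragment totals of annotated transcripts.

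The CAV2 log2 ratio of HuR siRNA to control was 5.49 by annotated FPKM, a value set by the pseudocount because control is listed at 0. It was 4.62 by fragment total of annotated transcripts, 2.76 with assembled transcripts and -0.24 by their fragment total; 3 CAV2 transcripts at 0 in both libraries gave no value alone. The PTRF ratio of PDL 55 to PDL 15 changed sign to -0.044 by fragment total, and to -1.39 and, with assembled transcripts, -0.21 against control siRNA. Of 392 member ratios under alternatives, 4 reversed a ratio past 2-fold, the 4 above. Of the rest, 165 lay beyond the authors' summed bounds of the annotated ratio and 223 within them. In sign, 40 of the 392 differed from the annotated ratio: these 4, and 36 from ratios under 2-fold, of which 6 were within the bounds. Among the 36 were CAV1 with HuR siRNA against control, from 0.80 to -0.20 by fragment total of annotated transcripts, CAV1 with AUF1 siRNA, from 0.63 to -0.32 against PDL 15, PRKCDBP at PDL 55, from -0.66 to 0.23 with status OK only, CAV3 at PDL 55, from 0.23 to -0.53 against control siRNA, and PTRF with AUF1 against HuR siRNA, from 0.39 to -0.46 with assembled transcripts. Alternatives that combine assembled transcripts with fragment totals, the median gene or another reference were chosen after seeing the data. The cause of each change was not tested, except that the value of 0 on annotated transcripts shows where an assembled transcript replaced them. Without read depth, counting error cannot be given.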
